A study of Mus musculus with 4 samples.

Results

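T cell clones that held both cells with Foxp3 messages and cells without them were examined in sorted T cells from the pancreatic islets of pre-diabetic female NOD mice, an inbred strain that develops autoimmune diabetes. A clone was a set of Cd8-negative cells of the same library (no UMI, that is no unique messenger molecule, of Cd8a or Cd8b1) that carried the same V segment and the same CDR3 bases in both their most abundant productive receptor alpha and beta chains. Clones of 2 or more such cells were called mixed (at least 1 cell with a Foxp3 UMI and at least 1 with none), Foxp3-only or Foxp3-free. The members were thus chosen by Foxp3 UMIs and receptor sequences, and their Foxp3 values are given as a description. The mixed clones numbered 15 and held 51 of the 3809 kept cells: 34 cells in 10 clones at 8 weeks and 17 cells in 5 clones at 16 weeks. The Foxp3-free clones they were compared with held 115 cells in 38 clones and 54 cells in 23 clones, and the Foxp3-only clones held 4 cells in 2 clones at each age. Cells whose receptor was seen once numbered 918 and 1005.

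The study made 1 messenger RNA library and 1 receptor library from live TCR beta-positive islet cells at each age, and every group here shares the NOD strain, the female sex and the pre-diabetic state. How many mice gave each library is not stated in the labels, so a clone cannot be assigned to an animal. With 1 library per age there was no replicate and no test: the intervals below are exact 95% intervals for counting error alone, and an age difference cannot be told apart from a library difference. The RNA libraries held 8659371 and 8183747 UMIs over 2043 and 2107 barcodes, of which 1875 and 1934 were kept, and 1071 and 1080 were Cd8-negative cells with both chains. In all, 5 barcode sequences occurred in both RNA libraries.

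Regulatory T cells (Tregs) are CD4 T cells that restrain other lymphocytes, and the X-linked transcription factor Foxp3 defines them. Their known surface proteins include the high-affinity interleukin-2 receptor chain Il2ra, the inhibitory receptor Ctla4 and the co-stimulatory receptors Tnfrsf4, Tnfrsf9 and Tnfrsf18. Tregs arise in the thymus or from conventional CD4 cells in tissues. Each T cell joins V, D and J segments with random bases in between, so cells with the same alpha and beta junctions usually descend from 1 ancestor. A cell sequenced in droplets yields only part of its messages, and a Foxp3-zero cell may therefore still have held some.

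The receptor sequences of the 3 largest mixed clones of each age are shown first, because they decide which cells with and without Foxp3 were counted as 1 clone. Each line is the CDR3 as deposited, 5′ to 3′. Capitals mark the bases found neither at the end of the V segment nor at the start of the J segment in the GENCODE M21 transcripts, so they can hold added bases, what is left of the D segment in beta chains, and bases in which the NOD strain differs from the reference.
TRAV13D-2/TRBV15 alpha (8 weeks): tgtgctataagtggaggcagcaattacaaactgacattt
TRAV13D-2/TRBV15 beta: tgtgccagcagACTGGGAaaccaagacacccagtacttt
TRAV4-3/TRBV5 alpha (8 weeks): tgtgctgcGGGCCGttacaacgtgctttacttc
TRAV4-3/TRBV5 beta: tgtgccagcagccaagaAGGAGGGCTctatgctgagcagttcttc
TRAV6-5/TRBV15 beta (8 weeks): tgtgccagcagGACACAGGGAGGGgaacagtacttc
TRAV6-7-DV9/TRBV13-2 beta (16 weeks): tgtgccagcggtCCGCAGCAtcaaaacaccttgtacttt
TRAV14-1/TRBV15 alpha (16 weeks): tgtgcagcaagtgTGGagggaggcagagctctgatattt
TRAV14-1/TRBV15 beta: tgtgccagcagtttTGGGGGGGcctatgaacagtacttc
TRAV14N-1/TRBV15 alpha (16 weeks): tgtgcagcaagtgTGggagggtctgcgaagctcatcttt
TRAV14N-1/TRBV15 beta: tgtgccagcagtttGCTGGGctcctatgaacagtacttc
The alpha chain of TRAV13D-2/TRBV15 has no base outside its segments, while its beta chain has 7. In TRAV6-5/TRBV15 the alpha CDR3 could not be marked, since the end of its CDR3 was not matched to its J segment. Over the mixed clones, the bases outside the segments had a median of 3 in alpha chains at both ages and of 8.5 and 8 in beta chains at 8 and 16 weeks, against 4 and 10 in Foxp3-free clones at both ages. The 3 alpha chains with TRAJ37, 1 of a mixed and 2 of Foxp3-free clones with other V segments, all ended their capitals in the same bases before the J segment, so the alpha chain of TRAV6-7-DV9/TRBV13-2 is not printed. Such shared bases count among the medians.

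The mixed clones did not share 1 receptor family. They used 14 alpha and 8 beta V segments, all found in the annotation: the alpha segments lie on chromosome 14 and the beta segments on chromosome 6 of GRCm38 (mm10). TRBV15 (chromosome 6, 41141188 to 41141658, plus strand) was the most frequent beta segment, in 4 of the 15 mixed clones and in 13 of the 61 Foxp3-free clones. Of the 16-week clones, TRAV14-1/TRBV15 and TRAV14N-1/TRBV15 both joined TRBV15 to TRBJ2-7 with beta CDR3s of 39 bases but with different bases at the junction, so they are separate clones. None of the mixed clones was seen in both libraries. The only receptor found as a clone at both ages was Foxp3-free, with 2 cells in each library, and is printed because it is the only alpha and beta pair that formed a clone at both ages. Single chains of other clones also occurred in both libraries.
TRAV5-4/TRBV1 alpha (both ages): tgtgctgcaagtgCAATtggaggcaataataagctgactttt
TRAV5-4/TRBV1 beta: tgcagtgGGACAtatgaacagtacttc
In the same library, 8 of the 15 mixed clones had their beta CDR3 in another cell whose main alpha and beta pair differed. For the alpha CDR3 this held for 4 clones. The shared chain could be a main or a second chain of the other cell. The clearest case was the beta chain of TRAV13D-2/TRBV15, which 4 further cells with another main pair carried.

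Mixed clones were a minority of the expanded clones. They were 10 of 50 clones at 8 weeks (interval 10.03% to 33.7%) and 5 of 30, or 16.7%, at 16 weeks (5.64% to 34.7%), and the intervals overlapped. Their share was 3 of 27 among clones of 2 cells, 3 of 12 among clones of 3, and 4 of 11 among clones of 4 or more cells at 8 weeks. At 16 weeks it was 2 of 22, 1 of 5 and 2 of 3. A larger clone has more cells in which a Foxp3 UMI can be seen, and a clone of 1 cell cannot be mixed by definition. Foxp3-only clones never exceeded 2 cells.

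The Foxp3 signal of the mixed clones rested on few molecules. Of the 51 cells, 17 had a Foxp3 UMI (ENSMUSG00000039521; chromosome X, 7573644 to 7595245, plus strand) and 34 had none. Of the 17, 9 had 1 UMI, 4 had 2 UMIs and 4 had 3 or more. The highest count, 9 UMIs, was in the Foxp3-detected cell of TRAV10N/TRBV17 at 16 weeks, and the next, 6 UMIs, in that of TRAV21-DV12/TRBV1 at 8 weeks. In 13 of the 15 clones exactly 1 cell was Foxp3-detected, and TRAV13D-2/TRBV15 and TRAV4-3/TRBV5 had 2 such cells among their 5. In 6 clones a single Foxp3 UMI made the clone mixed.

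Foxp3 UMIs were also seen where few Tregs should be. Cells with both chains, a Cd8a or Cd8b1 UMI and no Cd4 UMI had a Foxp3 UMI in 5.63% of 213 cells at 8 weeks (interval 2.94% to 9.63%) and in 5.65% of 230 at 16 weeks (3.04% to 9.47%), at median depths of 3774 and 3500 UMIs. Among cells of Cd8-negative clones of 2 or more cells, Foxp3 was detected in 16 of 153 (6.10% to 16.4%) and 9 of 75 (5.64% to 21.6%), at median depths of 4839 and 4515. The cells of clones were deeper than the Cd8 cells, Foxp3 UMIs are what the rule used, and the difference between these shares was not tested. Among single Cd8-negative cells the share was 14.1% and 11.8%, and it grew with depth, from 7.84% and 4.59% under 3000 UMIs to 34.4% and 37.5% at 6000 or more UMIs. Split the same way, 1 of 8 clones of Cd8 cells was mixed at 8 weeks (12.5%) and 0 of 3 at 16 weeks. Whether single Foxp3 UMIs in mixed clones came from free RNA was not tested.

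Mixed clones were CD4-like by their transcripts, with exceptions. A Cd4 UMI was found in 37 of the 51 cells and in at least 1 cell of all 15 clones. By age, the share of cells was 67.6% at 8 weeks, against 82.6% in Foxp3-free clones, and 82.4% against 81.5% at 16 weeks. For 3 of the clones, 6 further cells with the same receptor had been left out for a Cd8a or Cd8b1 UMI. These were 3 cells of TRAV14-1/TRBV15, 2 of TRAV13D-2/TRBV15 and 1 of TRAV10N/TRBV17.

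Cells with 2 productive beta chains were frequent in the mixed clones. They were 5 of 12 Foxp3-detected cells at 8 weeks (41.7%, interval 15.2% to 72.3%) and 2 of 5 at 16 weeks (40.0%, 5.27% to 85.3%). Among the Foxp3-zero cells of the same clones they were 2 of 22 (9.09%) and 4 of 12 (33.3%). Foxp3-free clones had 8.70% and 7.41%, and single cells had 27.1% and 30.3% when Foxp3 was detected and 8.75% and 10.8% when it was not. Foxp3-detected cells thus had the higher share of second beta chains among single cells too, beyond counting error at both ages, and they were deeper, with medians of 5003 and 4971 against 2791 and 2860.5 UMIs. A second beta chain can mark 2 cells in 1 droplet or a cell with 2 receptors. In the mixed clones the 13 such cells held 5 to 19 UMIs of the main beta chain and 2 to 9 of the second, and for 11 of them the second beta chain was found in no other cell. Their median depth was 10192 UMIs when Foxp3-detected and 9863.5 when Foxp3-zero, against 4767 and 4407 in cells with 1 beta chain. The Foxp3-detected cell of TRAV14-1/TRBV15 had 4 productive alpha chains as well. Whether these droplets held 2 cells was not tested.

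Without the cells that had 2 productive beta chains, 8 of the 15 clones were still mixed. They numbered 6 of 43 clones at 8 weeks (14.0%, interval 5.30% to 27.9%) and 2 of 26 at 16 weeks (7.69%, 0.946% to 25.1%). They held 19 and 7 cells, of which 6 and 2 were Foxp3-detected. Clones and classes were formed anew here and in the comparisons below that leave such cells out. The remaining cells of TRAV6-5/TRBV15 and TRAV5-4/TRBV13-3 at 8 weeks and of TRAV14-1/TRBV15 at 16 weeks then counted as Foxp3-free. With them, the Foxp3-free clones held 106 and 50 cells.

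**Figure D1:**
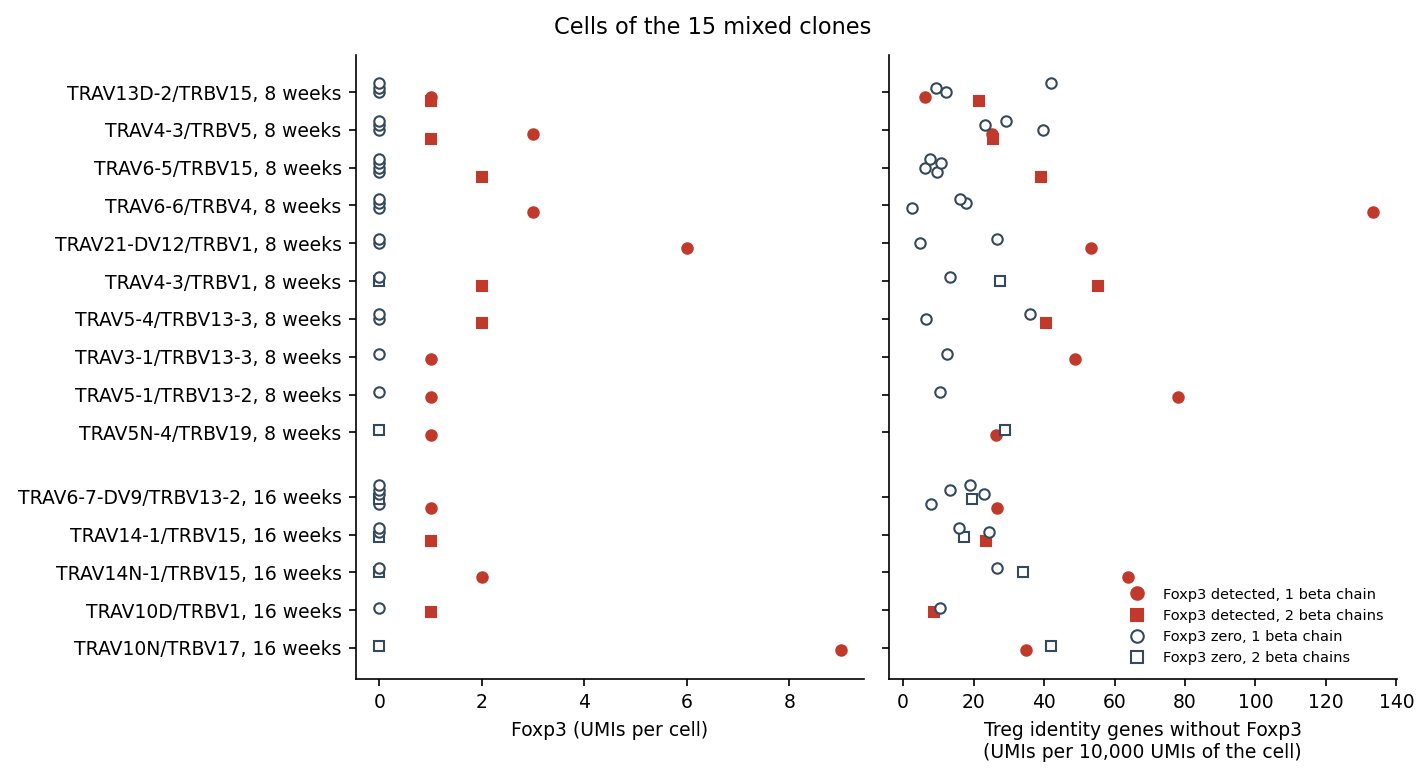
Foxp3 UMIs per cell (left) and UMIs of the 16 Treg identity genes, without Foxp3, per 10000 UMIs of the cell (right) for each cell of the 15 mixed clones, 1 clone per line. Filled red points are Foxp3-detected cells and squares are cells with 2 productive beta chains. Most clones have 1 red point, often at 1 or 2 UMIs, and the red point lies furthest right in 9 of the 15 clones.

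Within mixed clones, the Foxp3-detected cells carried more of the other Treg messages at 8 weeks. The Treg identity list of 16 genes, which leaves Foxp3 out, had a median of 39.9 UMIs per 10000 UMIs in the 12 Foxp3-detected cells at 8 weeks (lowest 6.10, highest 133) and of 12.9 in the 22 Foxp3-zero cells (2.55 to 42.1). At 16 weeks the medians were 26.6 in 5 cells (8.63 to 63.8) and 19.4 in 12 cells (8.03 to 41.9). The ranges overlapped at both ages. The Foxp3-detected cells had a mean above that of their clone's Foxp3-zero cells in 7 of the 10 clones of 8 weeks and 3 of the 5 clones of 16 weeks. The highest cell of the clone was Foxp3-detected in 9 of the 15. The deepest cell was Foxp3-detected in 5 of the 15.

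Single clones show both patterns. In TRAV6-6/TRBV4 at 8 weeks the Foxp3-detected cell had 133 Treg identity UMIs per 10000 UMIs, and its 3 clone mates had 2.55, 16.2 and 17.8. In TRAV5-1/TRBV13-2 the values were 77.9 and 10.4, and in TRAV21-DV12/TRBV1 they were 53.4 against 4.72 and 26.6. These 3 clones held no cell with 2 beta chains. By contrast, TRAV4-3/TRBV5 had 25.2 and 25.4 in its Foxp3-detected cells and 23.1, 29.3 and 39.8 in its Foxp3-zero cells, so its Foxp3-zero cells lay as high. The cell at 25.4 had 2 alpha and 2 beta chains, and the cell at 39.8 held 2 B cell UMIs. TRAV10N/TRBV17, with the highest Foxp3 count, had 34.8 in the Foxp3-detected and 41.9 in the Foxp3-zero cell, and the latter had 2 beta chains. Over both ages, cells with 1 beta chain had medians of 41.8 when Foxp3-detected (10 cells) and 13.3 when not (28 cells), and cells with 2 beta chains had 25.4 (7 cells) and 28.2 (6 cells). By age, cells with 1 beta chain had 48.7 (7 cells) against 12.4 (20 cells) at 8 weeks and 34.8 (3 cells) against 17.4 (8 cells) at 16 weeks. Cells with 2 beta chains had 39.3 (5 cells) against 28.2 (2 cells) at 8 weeks and 16.1 (2 cells) against 26.9 (4 cells) at 16 weeks, so their order turned between the ages. In the 4 clones with no 2-beta cell, all at 8 weeks, the Foxp3-detected cell was above its mates in 4 of 4.

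**Figure D2:**
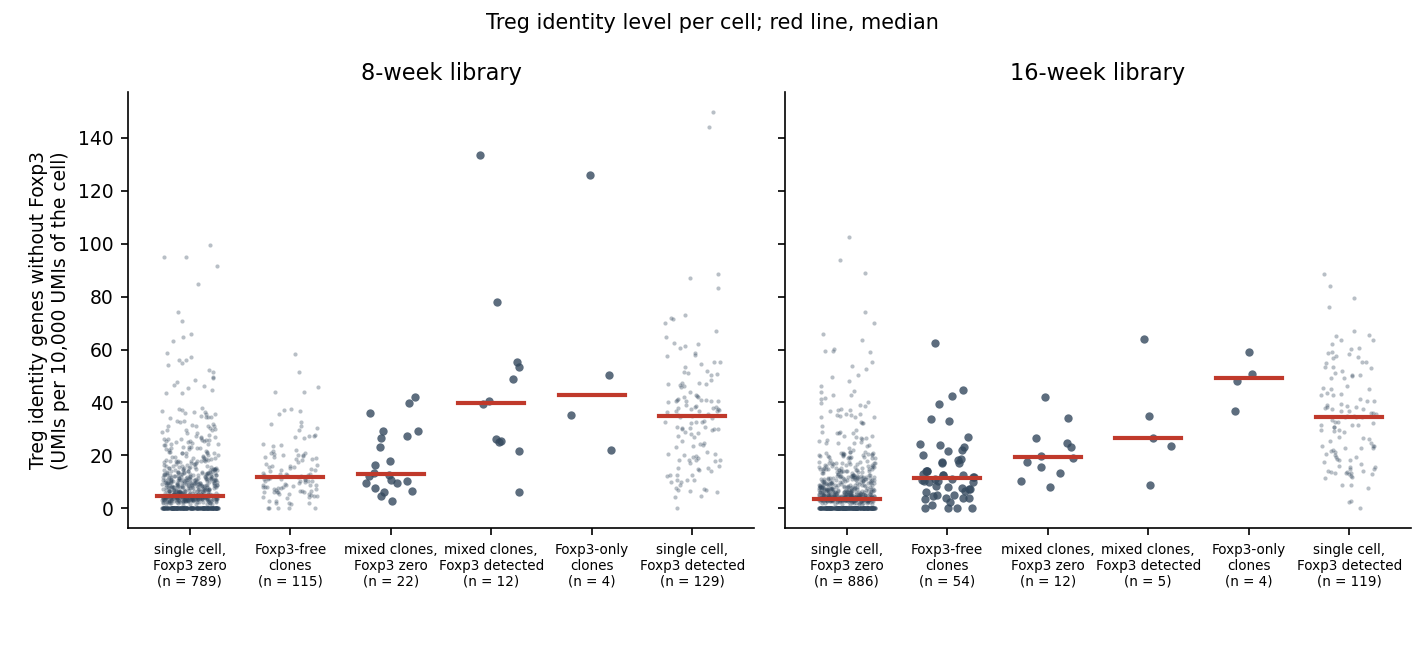
UMIs of the Treg identity genes, without Foxp3, per 10000 UMIs of each cell, by class and age; 1 point per cell, red lines are medians and n is the number of cells. At 8 weeks Foxp3-detected cells of mixed clones, with a median of 39.9, lie near single Foxp3-detected cells at 34.8. At 16 weeks their median of 26.6, from 5 cells, lies between 34.4 in single Foxp3-detected cells and 19.4 in Foxp3-zero clone mates. Foxp3-zero cells of mixed clones overlap with Foxp3-free clones.

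By gene, summed over the cells of a class and compared as the log2 ratio of CPM (counts scaled to 1000000 UMIs) with 0.5 UMIs added, Tnfrsf9 (4-1BB, a receptor of the TNF family) was the Treg identity gene with a log2 ratio past 1 at both ages between Foxp3-detected and Foxp3-zero cells of mixed clones. It had 38 against 9 UMIs at 8 weeks (log2 ratio 2.67, interval 1.65 to 3.96) and 22 against 8 at 16 weeks (2.16, 0.99 to 3.59). At each age 1 cell gave much of this, 47.4% of the 38 UMIs and 63.6% of the 22. Klf2, a transcription factor of resting and recirculating T cells, was also higher, by 1.63 (0.79 to 2.55) and 1.59 (0.48 to 2.82). It lay in 3 of the 5 Foxp3-detected cells at 16 weeks, and 1 cell gave 44.4% and 60% of their UMIs at 8 and 16 weeks. Single Foxp3-detected cells had less Klf2 than single Foxp3-zero cells (-0.77 and -1.01). Hist1h2ap, a histone gene of dividing cells, was lower, with log2 ratios of -3.37 (-4.60 to -2.48) and -3.03 (-6.44 to -1.37), and all its 16-week Foxp3-zero UMIs lay in 1 cell. These were the genes past a log2 ratio of 1 in the same direction in both libraries, 0.261% of the 765 tested genes in the higher and 0.131% in the lower direction. Among Treg identity genes, Tnfrsf18 (GITR) had 1.07 and 0.86, Ikzf2, the transcription factor Helios, 0.43 and 0.42, and Gimap7 1.22 and 0.64, all with intervals that held 0 at 16 weeks. The interval of Ikzf2 held 0 at 8 weeks as well. Tnfrsf4 (OX40) pointed in opposite directions, 1.96 at 8 weeks and -1.79 at 16 weeks. Ctla4 was also higher in the Foxp3-detected cells at 8 weeks and slightly lower at 16 weeks, there on few UMIs. The list as a whole had a summed log2 ratio of 1.25 (interval 1.02 to 1.49) at 8 weeks and of 0.17 (-0.20 to 0.54) at 16 weeks. With cells of 1 beta chain only, these sums were 1.87 (1.54 to 2.21) and 1.34 (0.63 to 2.06), the latter from 2 cells against 5. For comparison, single Foxp3-detected cells against single Foxp3-zero cells gave 2.68% of 8306 tested genes higher and 0.662% lower by the same rule, with Tnfrsf9 at 2.57 and 2.32, Ctla4 at 2.13 and 2.05 and Il2ra at 2.32 and 3.03.

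The 15 mixed clones as a whole were then compared with the Foxp3-free clones, which holds the Foxp3-detected cells in 1 arm only. Past a log2 ratio of 1 at both ages were 6 genes higher (0.227% of 2647 tested) and 7 genes lower (0.264%). Of the Treg identity list, 8 of 16 genes passed the filter of 20 UMIs in each library, and 7 of the 8 were higher at both ages, with 1, Tnfrsf9, past the threshold. Of all genes tested, 27.8% were higher and 25.2% lower at both ages. The median log2 ratio of these genes was 0.60 and 0.68, against -0.00 and 0.04 over all genes tested. Because the filter adds the UMIs of both arms, genes that passed through the arm where they are high had to differ, so these counts describe only the genes that passed.

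Tnfrsf9 (ENSMUSG00000028965; chromosome 4, 150914562 to 150946102, plus strand) had 192 CPM in mixed and 63.0 CPM in Foxp3-free clones at 8 weeks (log2 ratio 1.61, interval 0.99 to 2.23), and 274 and 27.7 CPM at 16 weeks (3.24, 2.15 to 4.64). In mixed clones 1 cell gave 38.3% and 46.7% of its UMIs at 8 and 16 weeks, and 1 clone gave 53.3% at 16 weeks. Without cells with 2 beta chains it fell under the threshold at 8 weeks, with 0.92 (-0.04 to 1.74) from 16 against 44 UMIs. At 16 weeks it then stood at 4.62 (3.15 to 6.53), from 14 UMIs in 7 cells of mixed clones against 5 UMIs. Ctla4 had 401 against 174 CPM at 8 weeks (1.21, 0.81 to 1.60) and 302 against 249 CPM at 16 weeks (0.29, -0.37 to 0.89). Ikzf2 was higher by 1.05 (0.57 to 1.51) and 0.66 (-0.12 to 1.40), and Tnfrsf4 by 0.75 (0.48 to 1.02) and 0.69 (0.21 to 1.15). Tnfrsf18 and Capg, an actin-capping protein, differed little at 8 weeks (0.11 and 0.10) and were higher at 16 weeks (1.29 and 1.24). Gimap7 had 0.46 and 0.13. Nrp1, a receptor of thymus-derived Tregs, lay at -0.63 and 0.53 with both intervals across 0. Il2ra, under the filter at 16 weeks, had 29 UMIs in mixed and 16 in the larger set of Foxp3-free cells at 8 weeks (2.38, 1.48 to 3.38). Its 16-week counts were 5 and 7. Without cells with 2 beta chains Tnfrsf4 turned at 16 weeks, to -0.20.

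**Figure D3:**
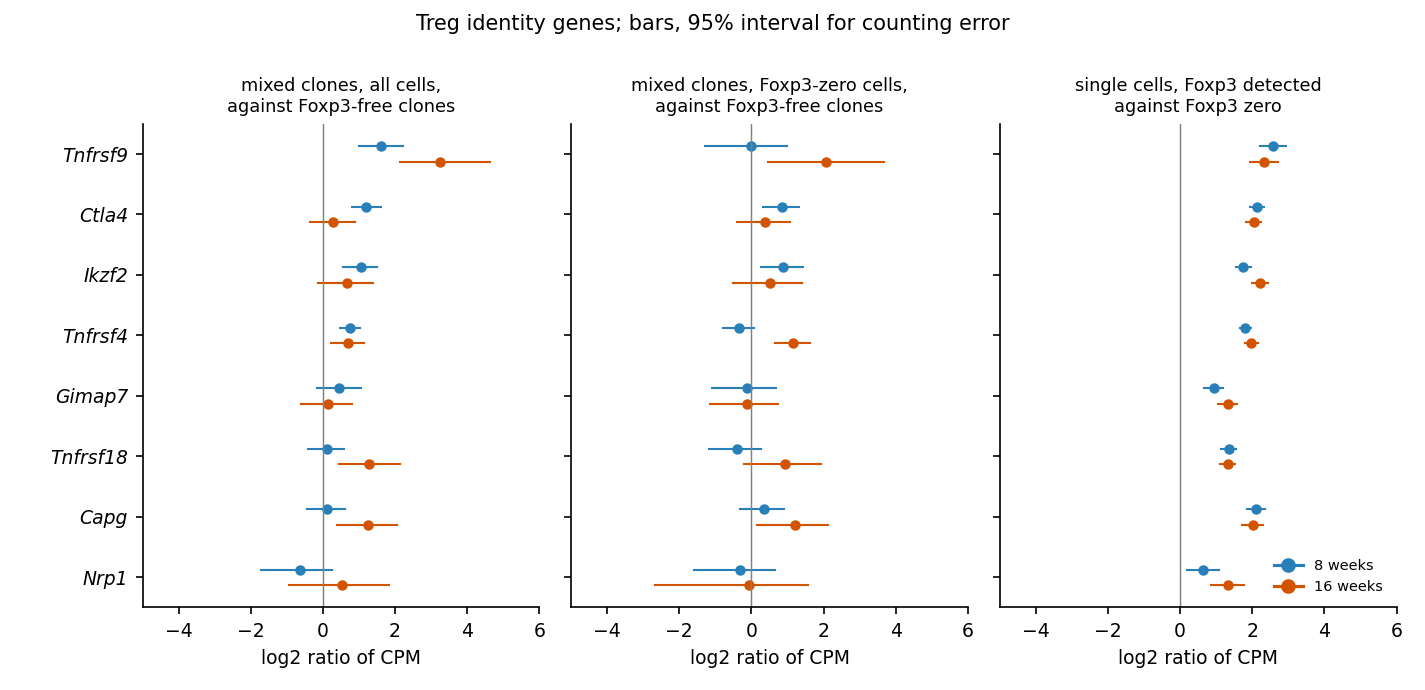
Log2 ratios of CPM of the 8 Treg identity genes that passed the filter in the comparison of mixed with Foxp3-free clones, with 95% intervals for counting error, at 8 weeks (blue) and 16 weeks (orange). The left panel holds all cells of mixed clones, the middle panel their Foxp3-zero cells and the right panel single cells with Foxp3 against those without; the right panel lies between 0.64 and 2.57, above most values of the middle panel.

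The Foxp3-zero cells of mixed clones address whether clone mates without a Foxp3 UMI resemble cells of Foxp3-free clones. At 8 weeks the summed Treg identity list had a log2 ratio of 0.07 (interval -0.14 to 0.27) over 241 UMIs, a difference that was not detectable at this depth. At 16 weeks it was 0.76 (0.48 to 1.03) over 156 UMIs. Medians over the 6 genes that passed the filter were 0.11 and 0.73. Ctla4 was higher by 0.84 (0.31 to 1.33) and 0.38 (-0.40 to 1.07), and Ikzf2 by 0.87 (0.26 to 1.43) and 0.52 (-0.50 to 1.39), the same direction at both ages. Tnfrsf4 was at -0.33 (-0.80 to 0.08) and 1.15 (0.64 to 1.62), and Tnfrsf18 at -0.39 and 0.94. Without cells with 2 beta chains the sum was 0.01 (-0.25 to 0.26) at 8 weeks and 0.50 (-0.08 to 1.00) at 16 weeks, where the interval then held 0. At 16 weeks Tnfrsf4 then stood at -0.76, Tnfrsf18 at -0.14 and Capg at -1.85, each opposite to its value with all Foxp3-zero cells. In single cells, 3 of 22 Foxp3-zero members at 8 weeks and 1 of 12 at 16 weeks reached the median Treg identity level of single Foxp3-detected cells (34.8 and 34.4 UMIs per 10000), against 9 of 115 and 4 of 54 cells of Foxp3-free clones.

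Foxp3-zero cells of mixed clones had Treg identity medians of 12.9 and 19.4 UMIs per 10000, Foxp3-free clones had 11.8 and 11.4, and unexpanded Foxp3-zero cells had 4.73 and 3.61. Cells of clones were also deeper: medians were 5745.5 and 6110 UMIs per cell in mixed clones, 4644 and 4152 in Foxp3-free clones and 2791 and 2860.5 in single Foxp3-zero cells. Against the Foxp3-only clones, of 4 cells each, Foxp3-zero cells of mixed clones were lower, with median log2 ratios of -1.61 and -1.002 over the 5 Treg identity genes that passed.

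Outside the Treg list, few genes separated the Foxp3-zero members from Foxp3-free clones in both libraries: 3 higher (0.126% of 2381 tested) and 7 lower (0.294%). The higher ones were Fam46c, Klf6 and Baz1b, and all 3 were also higher with all cells of mixed clones. Klf6 (ENSMUSG00000000078; chromosome 13, 5861482 to 5870394, plus strand), a zinc finger transcription factor, had 214 against 91.0 CPM at 8 weeks (1.25, interval 0.58 to 1.87) and 321 against 156 CPM at 16 weeks (1.06, 0.23 to 1.81). Fam46c, a poly(A) polymerase, had 93.8 against 39.2 CPM (1.28) and 117 against 52.0 CPM (1.21). Baz1b, a chromatin-associated bromodomain protein, had 67.0 against 33.6 CPM (1.04) and 131 against 52.0 CPM (1.37). The intervals of Baz1b held 0 at both ages, and that of Fam46c at 16 weeks.

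Gzmk led the lower genes in both comparisons. Granzyme K (ENSMUSG00000042385; chromosome 13, 113171608 to 113225908, minus strand) is a serine protease of effector T cells. It had 3 UMIs in mixed and 37 in Foxp3-free clones at 8 weeks (12.3 against 51.8 CPM, log2 ratio -1.87, interval -4.42 to -0.42), and 10 against 94 at 16 weeks (91.5 against 326 CPM, -1.77, -2.94 to -0.89). Without cells with 2 beta chains, Gzmk had 0 UMIs in mixed and 34 in Foxp3-free clones at 8 weeks. At 16 weeks it had 1 and 98 (-2.82, -8.71 to -0.88). That Foxp3-free arm also held the cells moved there from mixed clones, which at 16 weeks were those of TRAV14-1/TRBV15. Tyms, the thymidylate synthase of DNA replication, had log2 ratios of -1.66 (-2.90 to -0.74) and -1.54 (-3.64 to -0.20) with all cells, and of -1.10 (-2.44 to -0.14) and -1.23 (-3.78 to 0.24) in the Foxp3-zero cells, the last from 3 UMIs. Lars2, the mitochondrial leucine tRNA ligase, was the most abundant of the lower genes in the Foxp3-zero cells, with 1829 against 3831 CPM at 8 weeks (-1.06, -1.25 to -0.89) and 1836 against 3966 CPM at 16 weeks (-1.11, -1.39 to -0.84). With Foxp3 detection set at 2 UMIs its 16-week value turned to 0.77. Mitochondrial shares were also lower in the Foxp3-zero cells of mixed clones, with medians of 2.79% and 2.87% against 3.16% and 3.19% in Foxp3-free clones. Over all cells of mixed clones they were 2.64% and 2.71%. Whether that moved Lars2 was not tested. The others, with 1 to 7 UMIs in Foxp3-zero members of either library, were Tspan31, Art2b, Sar1b and Egr1. With all cells, Tacc3, Cdc20, Nsg2, Marcksl1 and Cab39l were also past the threshold. Tacc3 and Cdc20 act in mitosis, and at 8 weeks all of their UMIs in mixed clones came from 1 cell.

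The remaining higher genes with all cells were Pim1 and Ccl3. Pim1, a kinase induced by cytokine signals, had 180 against 75.6 CPM at 8 weeks (1.25, 0.64 to 1.85) and 192 against 41.6 CPM at 16 weeks (2.18, 1.12 to 3.36). It was detected in 17 and 9 cells of mixed clones. Without cells with 2 beta chains its log2 ratio was 1.64 (0.85 to 2.39) from 25 against 41 UMIs at 8 weeks. At 16 weeks it was 2.43 (0.45 to 4.11) from 5 against 9 UMIs. Ccl3, a chemokine, had 94.0 against 40.6 CPM and 622 against 62.4 CPM, but 1 cell gave 83.8% of its 16-week UMIs in mixed clones. Without cells with 2 beta chains the 16-week counts were 0 in mixed and 24 in Foxp3-free clones. Those 24 were counted with the cells of TRAV14-1/TRBV15 moved to the Foxp3-free arm.

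Just inside the threshold with all cells stood Klf6 and Baz1b, with smaller log2 ratios of 1.08 and 1.09, and just outside it Runx2 at 0.94 and Dnajc2 at 0.91. On the lower side, Cab39l at -1.10 was the last inside and Tmem126a at -0.97 the first outside.

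The list of immediate early and stress genes, which activation and cell handling both induce, was higher in mixed clones in both libraries. Egr1, given above among the lower genes, pointed the other way in their Foxp3-zero cells, with -1.23 and -2.53 from few UMIs. All 12 list members passed the filter and 10 were higher at both ages in each comparison, although none was past the threshold at both. Of all genes tested, 27.8% with all cells and 26.3% with the Foxp3-zero cells were higher at both ages. Between Foxp3-detected and Foxp3-zero cells of mixed clones, 3 of 11 tested list members were higher at both ages, against 21.8% of all genes tested, and the sums were 0.54 (interval 0.38 to 0.71) and -0.44 (-0.67 to -0.21). Median log2 ratios were 0.35 and 0.52 with all cells and 0.38 and 0.62 in the Foxp3-zero cells. The summed list had 0.56 (interval 0.46 to 0.66) and 0.48 (0.35 to 0.61) with all cells, and 0.51 (0.37 to 0.64) and 0.55 (0.32 to 0.77) without cells with 2 beta chains. Fos was at 0.94 and 0.53, Junb at 0.84 and 0.51 and Nfkbia, an inhibitor of NF-kB, at 0.87 and 0.68. In TRAV14-1/TRBV15 lay 39.5% of these UMIs at 16 weeks, and without that clone the sum was 0.23 (0.07 to 0.38).

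Most other T cell lists differed in direction between the ages or had an interval that held 0 at one of them. Treg effector and suppressor genes summed to 0.12 (interval -0.04 to 0.27) and 0.64 (0.43 to 0.85) with all cells and to -0.23 (-0.44 to -0.02) and 0.69 (0.44 to 0.92) in the Foxp3-zero cells, with 0 of 9 and 0 of 8 tested genes past the threshold. Stem-like and naive genes had 0.20 (-0.00 to 0.40) and -0.70 (-1.01 to -0.40), and exhaustion genes -0.25 (-0.41 to -0.10) and 0.57 (0.36 to 0.77). Anergy genes had -0.02 and -0.16 with intervals that held 0, and 5 of 6 tested genes lower at both ages, against 25.2% of all genes tested. The anergy sum turned to 0.30 (-0.20 to 0.75) at 16 weeks without cells with 2 beta chains. Genes of follicular helper cells had -0.36 (-0.57 to -0.17) and -0.20 (-0.51 to 0.09), the latter turning to 0.26 (-0.24 to 0.70) without cells with 2 beta chains. Interleukin-2 and STAT5 genes had 0.16 and 0.23, receptor signal genes 0.43 and 0.19 and interferon response genes -0.05 and 0.22. Effector-memory genes summed to -0.11 (-0.19 to -0.03) and -0.20 (-0.32 to -0.08), with 5 of 11 tested genes lower at both ages. Without cells with 2 beta chains these sums were 0.02 (-0.08 to 0.13) and -0.74 (-1.02 to -0.49), so the 8-week direction turned. Cytotoxic and Cd8 lineage genes had -0.05 and 0.38, and genes shared by T cells -0.16 and 0.08.

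Type 1 helper genes (Th1, such as Ifng and Ccl3) rested on few cells. With all cells they summed to 0.39 (interval 0.22 to 0.55) and 0.41 (0.27 to 0.55). At 16 weeks TRAV14-1/TRBV15 gave 79.1% of the 628 UMIs in mixed clones, 2 of its Foxp3-zero cells having 441 and 255 per 10000 UMIs. Without that clone the value was -1.37 (-1.65 to -1.12). At 8 weeks TRAV4-3/TRBV5 gave 27.0% of the UMIs, and without it the value was 0.16 (-0.03 to 0.34). With cells of 1 beta chain only, the values were 0.78 (0.57 to 0.99) and -2.23 (-2.83 to -1.74). At 16 weeks the TRAV14-1/TRBV15 cell with 441 per 10000 UMIs then counted as Foxp3-free. The Th1 UMIs of the Foxp3-free arm rose from 1245 to 1339, so this value also holds a change of arms. At 8 weeks the cell with the highest share was the Foxp3-detected one of TRAV3-1/TRBV13-3, with 301 per 10000 UMIs. Proliferation genes had -0.11 (-0.24 to 0.01) and -0.87 (-1.07 to -0.67). At 8 weeks 58.0% of the UMIs in mixed clones came from the Foxp3-zero cell of TRAV3-1/TRBV13-3, and without that clone the value was -1.21 (-1.39 to -1.04). With cells of 1 beta chain only, the values were 0.47 (0.34 to 0.61) and -2.60 (-3.35 to -2.001). Without TRAV14-1/TRBV15, which gave 56.3% at 16 weeks, it was -1.59 (-1.89 to -1.31). In this list 1 of 10 tested genes, Tyms, was past the threshold, in the lower direction, against 0.264% of all 2647 genes tested.

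**Figure D4:**
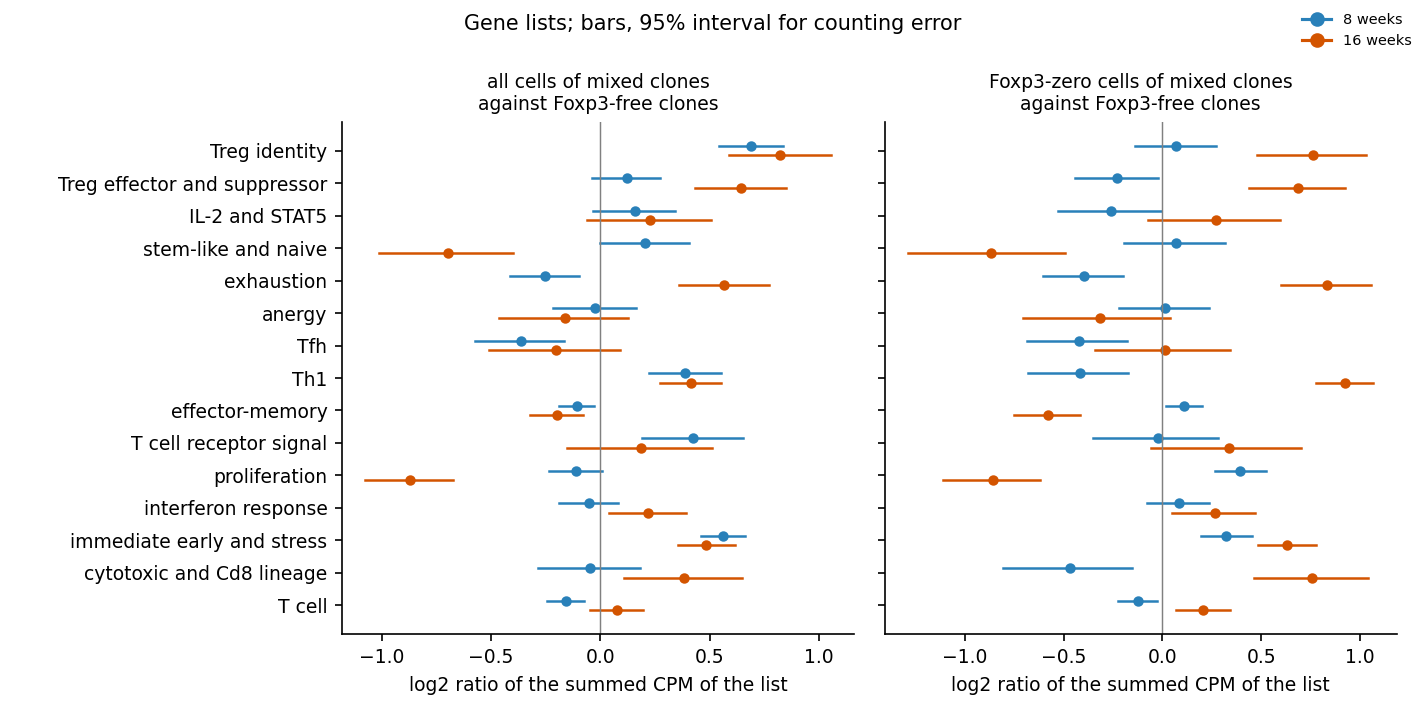
Log2 ratios of the summed CPM of 15 gene lists, for all cells of mixed clones (left) and their Foxp3-zero cells (right) against Foxp3-free clones, with 95% intervals for counting error, at 8 weeks (blue) and 16 weeks (orange). Immediate early and stress genes lie above 0 with their intervals at both ages in both panels, whereas the Treg identity list does so at both ages on the left, with 0.69 and 0.82, and at 16 weeks alone on the right.

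Markers of other islet cells had few UMIs in the mixed clones, but acinar and islet endocrine genes were more frequent there than in Foxp3-free clones at 16 weeks. Acinar genes had 12 UMIs in mixed and 15 in Foxp3-free clones at 8 weeks and 25 and 18 at 16 weeks, so their summed log2 ratios were 1.24 (interval -0.00 to 2.42) and 1.86 (0.94 to 2.83), with 4 and 1 of 9 markers at 0 in mixed clones. Of the 25 UMIs, 12 were in 1 Foxp3-zero cell of TRAV14-1/TRBV15 that also had 2 beta chains. B cell genes had 9 and 1 UMIs with 5 and 6 of 7 markers at 0, and myeloid and dendritic genes 67 and 34 UMIs with 6 and 7 of 8 at 0. Genes of natural killer and gamma-delta T cells had 32 UMIs and 1 UMI with 3 and 7 of 8 at 0, and genes of Th17 cells 4 and 0 with 5 and 7 of 7 at 0. Islet endocrine genes had 1 UMI in mixed and 9 in Foxp3-free clones at 8 weeks and 6 and 1 at 16 weeks, with 7 and 4 of 8 at 0 in mixed clones. Their 16-week log2 ratio was 3.52 (0.94 to 9.51), and without cells with 2 beta chains it was 5.10 (2.38 to 11.1) from 5 UMIs against 1. The part of these markers in the results above was not tested. With cells of 5 or more acinar or 2 or more B cell UMIs left out, all 15 clones were still mixed.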

How the data were processed

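Per the file headers, the authors' RNA tables hold raw UMI counts (27998 genes by barcode, Cell Ranger layout), and the deposited contig tables list V and J segments, CDR3 bases and UMI counts for each chain. The submitters' processing notes name mm10 and Seurat without versions; other upstream settings are not stated there. The labels call the receptor libraries mRNA, so titles were used. RNA depths were 8659371 and 8183747 UMIs.

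Kept cells had at least 500 genes and at most 10% mitochondrial UMIs, and RNA and receptor barcodes were joined within an age. No doublet caller was run, and cells with 2 or more productive beta chains stayed in unless stated. Where they were left out of a comparison, clones and classes were formed anew. UMIs were summed over a class, scaled to CPM and compared as log2 ratios with 0.5 UMIs added, for genes with 20 or more UMIs over both classes in each library, leaving out receptor segments and Foxp3. Intervals are exact at 95% (Clopper-Pearson, conditional on the total for ratios) and cover counting error only. A gene counted as higher or lower at a log2 ratio of at least 1 in the same direction in both libraries. The ratio code was tested on simulated data.

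The members, the 21 gene lists and the alternatives were chosen with earlier results of these data known. Named genes were Treg identity genes past the filter, list members with the most UMIs, Foxp3, Cd4, Cd8a, Cd8b1, and the 10 highest and 10 lowest genes by the smaller log2 ratio of the libraries with no cell giving over 50% of the higher class's UMIs, of which those past or next to the threshold are described. Il2ra, Ccl3, Klf2 and Hist1h2ap were named after their values were seen. The comparison of single cells, equal cell weight, removal of the deepest cell, leave-one-out over clones, and list sums without 1 clone or without 2-beta cells were chosen after seeing the data. Python 3.11.15, numpy 2.4.6, pandas 2.3.3, scipy 1.17.1, matplotlib 3.10.9 and GENCODE M21 were used.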

Additional observations from a re-analysis of the deposited data

Results flagged for a closer look

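Across 21 gene lists and 3 comparisons, 63 values were looked at, and 13 lay on opposite sides of 0 in the 2 libraries with both counting intervals excluding 0. The difference between the ages was not tested, since each age is 1 library. Each value is the 16-week minus the 8-week log2 ratio of the summed list.

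For all cells of mixed clones against Foxp3-free clones, exhaustion genes differed by 0.82 (-0.25 at 8 weeks and 0.57 at 16 weeks). For the Foxp3-zero cells of mixed clones, the differences were 0.91 for Treg effector and suppressor genes, 1.23 for exhaustion, 1.34 for Th1, -0.69 for effector-memory, -1.25 for proliferation, 1.23 for cytotoxic and Cd8 lineage and 0.33 for genes shared by T cells. For Foxp3-detected against Foxp3-zero cells within mixed clones, they were -1.19 for exhaustion, -3.86 for Th1, 1.501 for effector-memory, -0.98 for immediate early and stress and -2.27 for cytotoxic and Cd8 lineage genes.

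TRAV14-1/TRBV15, whose 4 cells were counted at 16 weeks, held 40.6% of the exhaustion UMIs, 79.1% of the Th1 UMIs and 46.2% of the cytotoxic UMIs of the mixed clones there. Without it, the 16-week log2 ratios of the Foxp3-zero cells were 0.45 (interval 0.16 to 0.73) for exhaustion, -1.37 (-1.72 to -1.05) for Th1 and 0.31 (-0.08 to 0.67) for cytotoxic genes, so only exhaustion of these 3 kept a direction opposite to 8 weeks beyond counting error. Without TRAV3-1/TRBV13-3, proliferation in the Foxp3-zero cells at 8 weeks was -0.96 (-1.17 to -0.75), the same direction as at 16 weeks.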

How the results depend on the processing

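No paired analysis was possible because each age is 1 library and no replicate numbers pair the libraries; cells were set side by side within clones as a description. The share of mixed clones ranged from 11.1% to 22.2% at 8 weeks and from 7.69% to 23.1% at 16 weeks over the alternatives. The Treg identity median against Foxp3-free clones ranged from 0.35 to 0.95 and from 0.50 to 1.47 for all cells, and from -0.17 to 0.71 and from 0.18 to 1.41 for Foxp3-zero cells, changing sign at 8 weeks only for the latter. With 1 clone left out the ranges were 0.46 to 0.71 and 0.57 to 0.95 for all cells, -0.17 to 0.33 and 0.42 to 0.88 for Foxp3-zero cells, 0.89 to 1.27 and -0.57 to 0.68 for Foxp3-detected against Foxp3-zero cells, and -1.74 to -1.43 and -1.59 to -0.81 against Foxp3-only clones.

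Foxp3-detected against Foxp3-zero cells had medians of 2.17 and -0.98 without clones that hold a Cd8 cell, of 2.70 and -3.00 in clones of exactly 2 cells, and of -1.79 at 16 weeks with 50 UMIs per gene. Against Foxp3-only clones the median was -2.21 at 16 weeks without 2-beta cells and -0.31 at 8 weeks without the largest clone of each class. No Treg gene was left for a value against Foxp3-only clones with 2 Foxp3 UMIs, without acinar or B cell RNA and after thinning, nor within mixed clones without 2-beta cells and after thinning.

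Counts of genes past the threshold also moved. For all cells (6 higher, 7 lower) they became 2 higher without 2-beta cells, 10 and 24 with 2 Foxp3 UMIs, 14 lower in clones of 2 cells, 3 and 12 with equal clone weight, 13 higher by the beta chain alone, 16 lower with 750 genes and 5% mitochondrial UMIs, 994 and 138 without a gene filter, 2 and 0 with 50 UMIs per gene, 2 lower with 2 UMIs added, and 11 and 14 with equal cell weight. For Foxp3-zero cells (3 higher, 7 lower) they became 7 and 14, 7 and 34, 14 and 17 in the first 3 of these settings, 15 lower with equal clone weight, 5 and 17 with stricter cells, 854 and 149, 1 and 1, 6 and 2, and 9 and 15 in the last 4; also 1 higher without the largest clone, 4 lower without acinar or B cell RNA, 11 and 12 after thinning to 1700 UMIs, and 15 lower without the deepest cell. With 1 clone left out, the counts were 4 to 9 and 6 to 17 for all cells, and 2 to 5 and 2 to 17 for Foxp3-zero cells; both counts of 17 came without TRAV3-1/TRBV13-3, the count of 2 lower came without TRAV10N/TRBV17, and 5 higher without it or TRAV14N-1/TRBV15.

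Among the genes past the threshold, directions turned for 13 genes, in 27 values, 13 of them after thinning; turns of Tnfrsf4, Tnfrsf18 and Capg, under the threshold, are given above. For all cells, Marcksl1 became 0.052 and Ccl3 -2.39 at 16 weeks without 2-beta cells, the latter from 0 UMIs in mixed clones; Baz1b became -0.23 and Ccl3 -1.57 at 16 weeks with 2 Foxp3 UMIs; Ccl3 became -1.40 without Cd8-holding clones; Cdc20 became 0.070 and Tacc3 0.19 at 8 weeks in clones of 2 cells; Cdc20 became 0.25 and Marcksl1 0.47 by the beta chain alone. After thinning, Cdc20 was 0.18 and 0.72, Tacc3 0.72 at 16 weeks and Cab39l 0.92 at 8 weeks. For Foxp3-zero cells, Art2b became 0.55 without 2-beta cells, Lars2 0.77 and Egr1 0.77 with 2 Foxp3 UMIs, Klf6 -0.11 in clones of 2 cells and Sar1b 0.65 by the beta chain alone. After thinning, Tyms was 0.64 and 0.87, Baz1b -1.07, Art2b 0.87, Tspan31 0.37 and 2.17, Lars2 0.64, Sar1b 0.99 and Klf6 -0.20. The causes were not tested.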
